A study of Mus musculus with 17 samples.

Results

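The matricellular proteins and fibronectin are a group of 10 secreted glycoproteins of the extracellular matrix, chosen by gene symbol: Postn, Spp1, Tnc, Sparc, Thbs1, Thbs2, Thbs4, Ccn1, Ccn2 and Fn1. All 10 have a row among the 31647 features of the count table, and all 10 had enough counts to be tested. They were measured in 17 mouse hearts by massive analysis of cDNA ends (MACE), a method that sequences the 3' ends of mRNA and gives each molecule an identifier so that PCR copies can be removed. The mice were wild-type C57BL/6J males, per the study's methods 8 to 11 weeks old at surgery. All were operated under isoflurane with buprenorphine. In the 9 mice of one group the left anterior descending coronary artery was permanently ligated, and the tissue was the infarct zone (IZ) at 5d post-MI. The other 8 mice went through the operation without ligation, and the tissue was left ventricle (LV), also at 5d after surgery. The model has no reperfusion, and a piece of bulk tissue holds many cell types in unknown shares.

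Matricellular proteins are secreted into the matrix but carry little of its load: they bind collagens, growth factors and cell surface receptors, and change how cells attach, migrate and respond. Most are scarce in the adult heart and are made again after injury, when fibroblasts, macrophages and vascular cells build a scar in place of lost cardiomyocytes. Fibronectin, which is a structural glycoprotein, forms the provisional matrix on which collagen is later laid down, and several matricellular proteins bind it.

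Total counts per library ran from 1237675 to 4738307, and levels are given as CPM, the count of a gene relative to the library size after TMM scaling (trimmed mean of M values). The 10 cardiomyocyte markers summed to between 70961 and 84215 CPM in the sham libraries. IZ replicate 1 stood apart from the other IZ libraries: its cardiomyocyte markers summed to 32150 CPM against 3169 to 7566 CPM in the other 8, and mitochondrially encoded features took 19.5% of its counts against 4.22 to 6.78%. Sham replicate 5 stood apart for Spp1 and Tnc, with 2 counts of each. No batch, date or lane is given in the labels, and within-batch values could not be had.

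All 10 genes were higher in the IZ. edgeR's quasi-likelihood F-test, with Benjamini-Hochberg adjustment over 12301 genes, called each of them at an adjusted p under 0.05, and 36.3% of all tested genes were called higher. The median log2 fold change of the 10 was 3.55, and the median over all tested genes was 0.054. In 9 of the 10 genes every IZ library lay above every sham library, as was the case for 16.6% of all tested genes, and Ccn1 was the exception. All 10 were also called higher without IZ replicate 1 and without sham replicate 5. In bulk tissue, more cells of a kind and more RNA per cell cannot be told apart. The groups also differed in cell type markers: all 10 cardiomyocyte markers were called lower, all 10 macrophage markers higher, with their sum at 451 to 633 CPM in sham and 2551 to 6298 CPM in the IZ, and of 10 fibroblast identity markers 8 were called higher, 1 (Gsn) lower and 1 was not called, with their sum at 1962 to 2994 CPM in sham and 2120 to 3050 CPM in the IZ. The 3 tested neutrophil markers and the 2 tested platelet markers were called higher, with sums over the whole lists of 4.44 to 12.3 CPM and 28.3 to 48.9 CPM in sham and 14.9 to 210.4 CPM and 50.4 to 358 CPM in the IZ. Most of the platelet sum was Pf4, with a mean of 31.6 CPM in sham and 144 CPM in the IZ. Gp1bb went from 0.38 to 4.57 CPM, and Ppbp, Itga2b and Gp9 were not tested. Of 8 smooth muscle and pericyte markers 4 were called higher and 4 lower, while their sum went from 660 to 938 CPM in sham to 965 to 1796 CPM in the IZ. Mean CPM rose for Acta2 (137 to 666), Tagln (59.4 to 413), Cnn1 (5.73 to 34.2) and Pdgfrb (46.5 to 90.0). It fell for Rgs5 (317 to 139), Abcc9 (145 to 22.0), Kcnj8 (48.1 to 14.0) and Myh11 (26.0 to 14.3). Of 8 endothelial markers 4 were called lower and 4 were not called, with sums of 595 to 1074 CPM in sham and 378 to 648 CPM in the IZ. The part of these shifts in each gene's change was not tested.

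**Figure D1:**
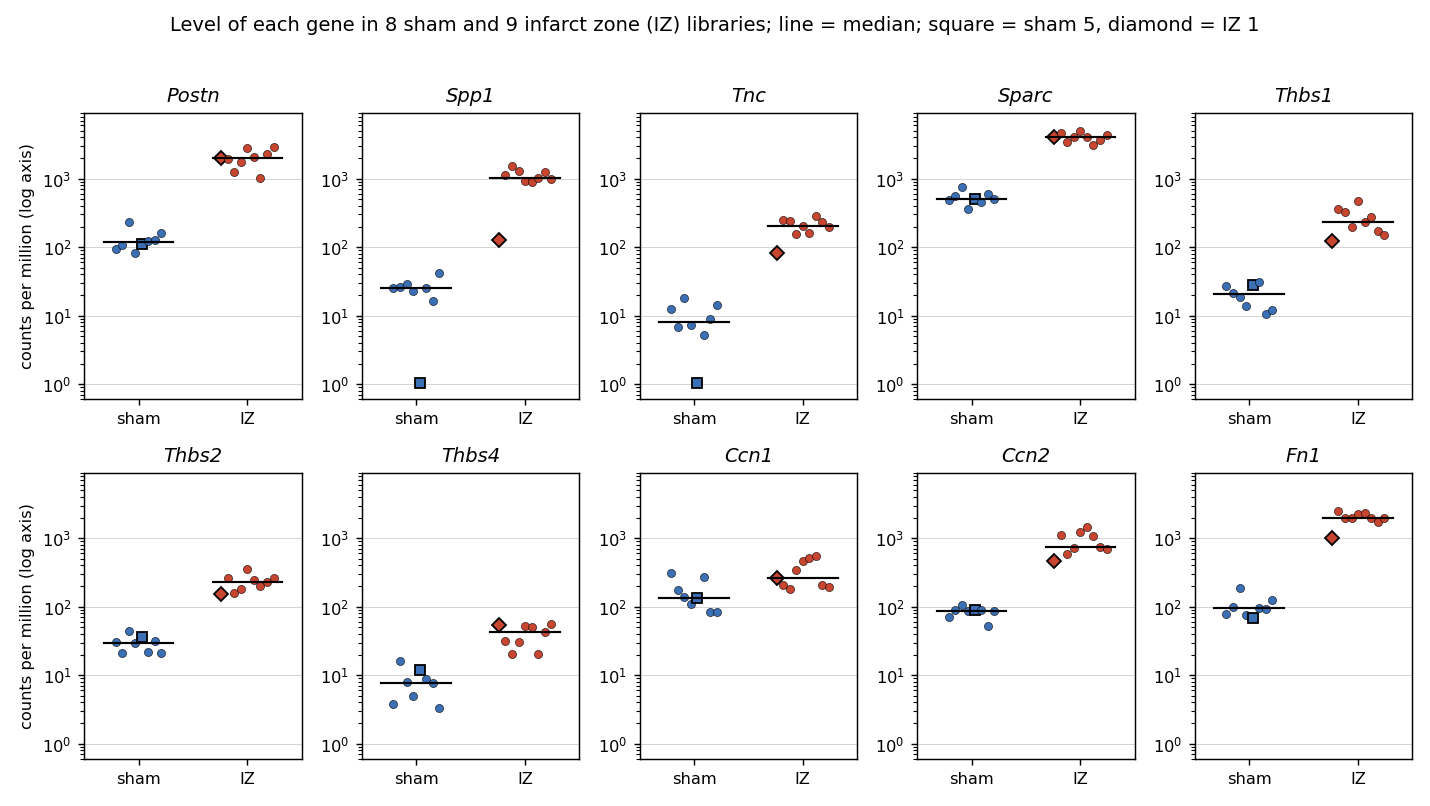
Level of each of the 10 genes in CPM, on a log axis, in the 8 sham and 9 infarct zone libraries; each point is 1 library and the line is the group median. The groups overlap for Ccn1 and for no other gene. The diamond of infarct zone replicate 1 is the lowest infarct zone point for Spp1, Tnc, Fn1, Ccn2, Thbs1 and, by a narrow margin, Thbs2.

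The largest rise was that of Spp1 (ENSMUSG00000029304, mm10 chromosome 5, 104435118 to 104441050, plus strand), which encodes osteopontin, a phosphoprotein that macrophages and fibroblasts secrete and that integrins and CD44 bind. Its sham libraries had a lowest value of 1.04, a median of 25.1 and a highest of 42.2 CPM. The IZ libraries had a lowest of 126.5, a median of 1025 and a highest of 1528 CPM. The lowest value in either group came from a library that stood apart: sham replicate 5 in sham and replicate 1 in the IZ, where the other 8 libraries had 889 CPM or more. The log2 fold change was 5.45 ± 0.45 (SE; adjusted p 3.47e-10, edgeR), the 14th highest of the 12301. It was 5.58 without IZ replicate 1 and 5.25 without sham replicate 5.

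Postn (ENSMUSG00000027750, chromosome 3, 54361109 to 54391037, plus strand) encodes periostin, a product of activated fibroblasts that takes part in collagen assembly. Sham libraries ran from 82.5 to 233 CPM with a median of 117, and IZ libraries from 1024 to 2937 CPM with a median of 1981. Its log2 fold change was 3.95 ± 0.25 (SE; adjusted p 8.18e-12, edgeR), and the lowest IZ value was 4.40 times the highest sham value. IZ replicate 1, low in Spp1, was the median library for Postn, and the lowest Postn values were those of IZ replicates 7 and 3, with 1024 and 1251 CPM.

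Tnc (ENSMUSG00000028364, chromosome 4, 63959785 to 64047015, minus strand) encodes tenascin-C, which weakens the attachment of cells to fibronectin. It had 1.04 to 18.2 CPM in sham, with a median of 8.05, and 80.8 to 285 CPM in the IZ, with a median of 205. The log2 fold change was 4.45 ± 0.31 (SE; adjusted p 2.79e-11, edgeR). Sham replicate 5 and IZ replicate 1 were again the lowest libraries of their groups, and the groups did not overlap. Without sham replicate 5 the log2 fold change was 4.25.

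Fn1 (ENSMUSG00000026193, chromosome 1, 71585520 to 71653200, minus strand) encodes fibronectin itself. The sham values were 67.8 to 188 CPM with a median of 95.1, and the IZ values 995 to 2483 CPM with a median of 1976. It rose by 4.25 ± 0.23 on the log2 scale (SE; adjusted p 9.94e-13, edgeR), and had the widest gap between the groups among the 10 genes, with the lowest IZ library at 5.30 times the highest sham library. That lowest library was IZ replicate 1, and the other 8 lay between 1724 and 2483 CPM. A 3' end count does not separate the splice forms of fibronectin with and without the extra domains.

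Sparc (ENSMUSG00000018593, chromosome 11, 55394500 to 55423183, minus strand) encodes a collagen-binding protein that helps to process and deposit procollagen. It was the most abundant of the 10 in both groups and the least variable in the IZ, where its values had a coefficient of variation of 14.5%. Sham libraries held 357 to 753 CPM with a median of 507, and IZ libraries 3089 to 4936 CPM with a median of 4065. The log2 fold change was 2.94 ± 0.18 (SE; adjusted p 5.87e-12, edgeR), and IZ replicate 1 was its median library.

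The thrombospondins bind calcium, matrix proteins and receptors such as CD47 and the calcium channel subunit encoded by Cacna2d1. CD36 is a receptor of Thbs1 and Thbs2, and Thbs1 is also known to activate latent TGF-β. Thbs1 (ENSMUSG00000040152, chromosome 2, 118111876 to 118127133, plus strand) had 10.4 to 30.9 CPM in sham, with a median of 20.4, and 121 to 474 CPM in the IZ, with a median of 234. Its log2 fold change was 3.68 ± 0.29 (SE; adjusted p 1.32e-10, edgeR). Thbs2 (ENSMUSG00000023885, chromosome 17, 14665500 to 14694235, minus strand) had 21.0 to 44.3 CPM in sham, with a median of 29.8, and 156 to 350 CPM in the IZ, with a median of 232. It rose by 2.95 ± 0.19 on the log2 scale (SE; adjusted p 6.71e-12, edgeR).

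Thbs4 (ENSMUSG00000021702, chromosome 13, 92751590 to 92794818, minus strand), a pentameric thrombospondin made in heart and tendon, had the lowest mean level of the 10 in both groups. It had 3.33 to 16.3 CPM in sham, with a median of 7.81, and 20.1 to 55.1 CPM in the IZ, with a median of 42.3. The gap between the groups was narrow, the lowest IZ library being 1.23 times the highest sham library. The log2 fold change was 2.29 ± 0.28 (SE; adjusted p 1.82e-07, edgeR). IZ replicate 1 held 53.6 CPM of Thbs4, the second highest value, whereas it was the lowest IZ library for Thbs1 and for Thbs2.

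Ccn1 and Ccn2 encode CYR61 and CTGF, modular proteins that bind integrins and heparan sulphate and that are both used as readouts of the cofactor YAP and its TEAD partners. Ccn2 (ENSMUSG00000019997, chromosome 10, 24595442 to 24598683, plus strand) had 53.2 to 105 CPM in sham, with a median of 88.0, and 464 to 1436 CPM in the IZ, with a median of 752. Its log2 fold change was 3.42 ± 0.22 (SE; adjusted p 1.01e-11, edgeR). The lowest IZ value was that of replicate 1, and without this library the log2 fold change was 3.48. Ccn1 (ENSMUSG00000028195, chromosome 3, 145646976 to 145649981, minus strand) had 82.4 to 310 CPM in sham, with a median of 135, and 180 to 552 CPM in the IZ, with a median of 260. The groups overlapped: 4 of 9 IZ libraries (replicates 4 to 7) lay above every sham library, and sham replicates 1 and 6, with 310 and 273 CPM, lay above the IZ median. The log2 fold change was 0.99 ± 0.29 (SE, 95% interval 0.42 to 1.56; adjusted p 0.00412, edgeR), the smallest of the 10, and the largest adjusted p over 26 alternative settings was 0.0109.

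**Figure D2:**
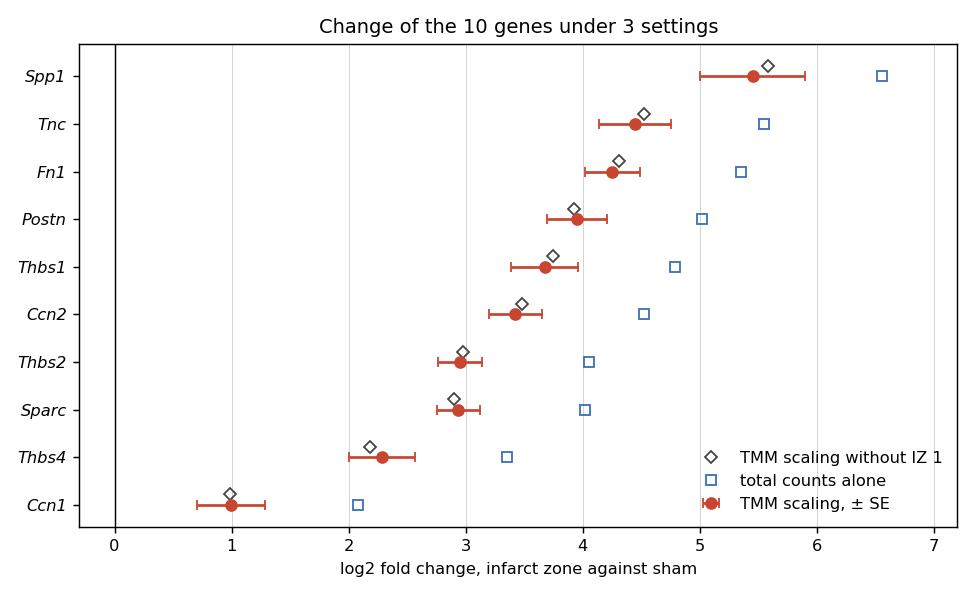
Log2 fold change of the infarct zone against sham for each of the 10 genes, with filled points and standard errors for TMM scaling, open diamonds for the same scaling without infarct zone replicate 1, and open squares for scaling by total counts alone. The order runs from 5.45 for Spp1 to 0.99 for Ccn1, and total counts alone move all 10 to the right, to between 2.08 and 6.56.

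None of the 10 has a near-identical 3' end in another gene. The annotation puts a second gene over part of an exon of Spp1 on the same strand (Gm42793, 1 count in all libraries together), and of Tnc, Thbs1, Ccn2 and Fn1 on the opposite strand. The partner of Ccn2 had 39 counts in all, those of Tnc and Fn1 had 3 and 8, and the partner of Thbs1 has no row.

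Promoter sequence was read for 7 of the 10 genes, all but Thbs1, Ccn2 and Fn1, from RefSeq's table of the build GRCm38.p6. It is shown for the gene with the largest rise, the gene with the smallest, Thbs4 and periostin, as the 200 bases before the RefSeq start, 5′ to 3′ on the gene's own strand, none of which overlaps an annotated exon. Capitals mark the letters TATAA (TATA box) or GGAATG (TEAD site), or their reverse complements.
Spp1 (chr5:104434911-104435110, plus strand): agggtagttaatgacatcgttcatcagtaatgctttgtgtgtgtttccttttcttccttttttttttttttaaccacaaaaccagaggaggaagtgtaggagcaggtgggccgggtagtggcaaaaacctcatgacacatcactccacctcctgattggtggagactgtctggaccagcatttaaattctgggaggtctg
Postn (chr3:54360907-54361106, plus strand): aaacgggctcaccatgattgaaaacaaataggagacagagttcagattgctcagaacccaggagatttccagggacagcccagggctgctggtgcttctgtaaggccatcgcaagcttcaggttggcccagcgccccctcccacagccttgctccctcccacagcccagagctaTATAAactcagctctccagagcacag
Ccn1 (chr3:145649986-145650185, minus strand): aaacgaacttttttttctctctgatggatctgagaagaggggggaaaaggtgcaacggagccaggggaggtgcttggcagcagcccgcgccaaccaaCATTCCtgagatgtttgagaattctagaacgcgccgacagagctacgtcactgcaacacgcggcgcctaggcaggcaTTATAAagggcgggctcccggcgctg
Thbs4 (chr13:92794819-92795018, minus strand): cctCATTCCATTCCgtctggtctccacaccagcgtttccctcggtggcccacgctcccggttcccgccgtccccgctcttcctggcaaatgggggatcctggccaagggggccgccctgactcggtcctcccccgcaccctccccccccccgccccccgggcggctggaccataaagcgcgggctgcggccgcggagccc

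Both motifs and TGANTCA (AP-1 site) were searched on both strands in the 250 bases before each start. TATAA was found in 5 of the 7 genes and in 22.8% of the 32851 RefSeq windows. In Postn it began 26 bases before the start and in Ccn1 25 bases before it, where the letters read as a match on both strands, whereas in Spp1, Tnc and Thbs2 it lay 211, 126 and 125 bases away. GGAATG or its complement was found once in Ccn1, 103 bases before the start, 2 times in Thbs4 as matches that share a base, and in none of the other 5 genes, against 12.6% of all windows. TGANTCA was in none of the 7 windows and in 6.75% of all. The window of Sparc starts 3103 bases from the start of the GENCODE gene, so it may not be the promoter used here. A match of letters does not show that a factor binds.

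The 10 genes together took 0.0738 ± 0.0161% (SD) of all counts over the 8 sham libraries and 1.56 ± 0.322% (SD) over the 9 IZ libraries. Such a share is relative to the library's own total, as in scaling by total counts alone, and depends on what else fills that total. Mitochondrially encoded features took 22.9 to 32.4% of the counts in sham. In the IZ they took 19.5% in replicate 1 and 4.22 to 6.78% in the other libraries. The part of this in the shares was not tested. The exact two-sided permutation p was 4.11e-05, the smallest that these group sizes allow. The sham libraries ran from 0.0530 to 0.106%, and the IZ libraries from 0.864 to 1.93% with a median of 1.59%. IZ replicate 1 gave the lowest IZ value, and without it the mean was 1.65 ± 0.202% (SD, n = 8).

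**Figure D3:**
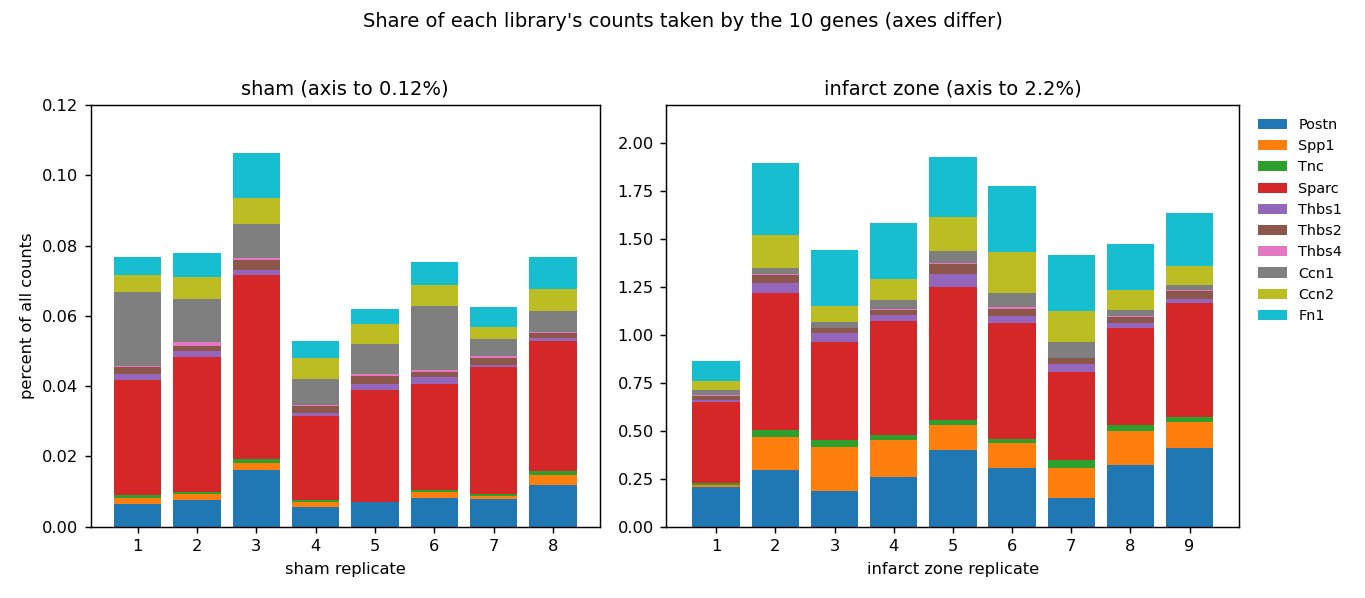
Percent of each library's counts taken by each of the 10 genes, stacked, for the sham libraries on an axis to 0.12% and the infarct zone libraries on an axis to 2.2%. Ccn1 is a broad band in the sham bars and a thin one in the infarct zone, where Postn, Fn1 and Spp1 take more.

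The mix of the 10 is given as a description. Sparc took 47.9 ± 5.45% (SD) of the counts of the 10 in the 8 sham libraries and 37.0 ± 4.78% (SD) in the 9 IZ libraries. Ccn1 went from 14.9 ± 7.32% to 2.99 ± 1.39%, Fn1 from 9.25 ± 2.0% to 17.8 ± 2.76%, Postn from 11.7 ± 2.50% to 18.3 ± 4.88% and Spp1 from 2.15 ± 1.10% to 9.31 ± 4.05%. Ccn2 had 7.81 ± 1.76% in sham and 8.08 ± 2.36% in the IZ. These shares of a sum depend on each other and were not tested one by one.

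Because MACE counts 3' ends, the order of the genes was taken from log2 CPM without division by length. In sham it was Sparc, Ccn1, Postn, Fn1, Ccn2, Thbs2, Thbs1, Spp1, Tnc and Thbs4. The neighbours Ccn1 and Postn differed by 0.23 ± 0.96 on the log2 scale (SD of the differences, n = 8), Fn1 and Ccn2 by 0.25 ± 0.45, Thbs2 and Thbs1 by 0.58 ± 0.70, and Thbs1 and Spp1 as well as Tnc and Thbs4 by less than 0.1, all less than their spread. In the IZ the order was Sparc, Postn, Fn1, Spp1, Ccn2, Ccn1, Thbs1, Thbs2, Tnc and Thbs4. Here the difference of Postn and Fn1 was less than its spread (0.0063 ± 0.62, SD, n = 9). So were those of Spp1 and Ccn2 (0.048 ± 0.98), Ccn1 and Thbs1 (0.33 ± 0.77), Thbs1 and Thbs2 (0.093 ± 0.58) and Thbs2 and Tnc (0.22 ± 0.54). In both groups this spread is that between libraries, and the order of the means was not tested. Sparc exceeded Postn in 9 of 9 IZ libraries, and Ccn2 exceeded Ccn1 in 9 of 9.

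Ratios of 2 genes within a library do not depend on how libraries are scaled. The mean log2 ratios of the groups were compared in exact two-sided permutation tests, adjusted over the 16 ratios tested. Ccn1 stood at a mean of 0.82 ± 0.71 against Ccn2 in sham (SD, n = 8) and at -1.51 ± 0.50 in the IZ (SD, n = 9). The single sham values ran from -0.06 to 2.11 and the IZ values from -2.43 to -0.83, so that all 9 IZ libraries lay below all 8 sham libraries. The difference was -2.33 (exact permutation p 4.11e-05, adjusted 7.31e-05). Thus the 2 CCN genes, of which Ccn1 was the higher in 7 of 8 sham libraries, stood in the opposite order in every IZ library.

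Of the 3 ratios among the thrombospondins, 1 was called. The log2 ratio of Thbs1 to Thbs4 went from 1.33 ± 0.73 in sham (SD, n = 8) to 2.67 ± 1.02 in the IZ (SD, n = 9), with 5 of 9 IZ libraries above every sham library and IZ replicates 1 and 9 well inside the sham range (difference 1.33, exact permutation p 0.00971, adjusted 0.0141). With all libraries thinned to 1 depth, that of the smallest, the difference was 1.002 (exact permutation p 0.0733), so the call was lost. Thbs1 to Thbs2 differed by 0.67 and Thbs2 to Thbs4 by 0.67, with adjusted exact permutation p of 0.0559 and 0.0590, which does not show that these ratios were equal in the groups.

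The log2 ratio of Postn to Spp1 was lower in the IZ, at 1.13 ± 1.25 (SD, n = 9) against 2.75 ± 1.45 in sham (SD, n = 8). The difference was -1.62 (exact permutation p 0.0170, adjusted 0.0227). In 8 of 9 IZ libraries the ratio lay below all sham libraries, the exception being IZ replicate 1 at 3.97, where Spp1 was low. Without that library the difference was -1.98, and without sham replicate 5, which had 2 counts of Spp1, it was -1.14 (exact permutation p 0.0406). The ratio of Fn1 to Tnc was 3.61 ± 0.87 in sham (SD, n = 8) and 3.33 ± 0.37 in the IZ (SD, n = 9), with a difference of -0.28 (exact permutation p 0.446) that took the opposite sign when medians were compared or 5 counts were added.

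**Figure D4:**
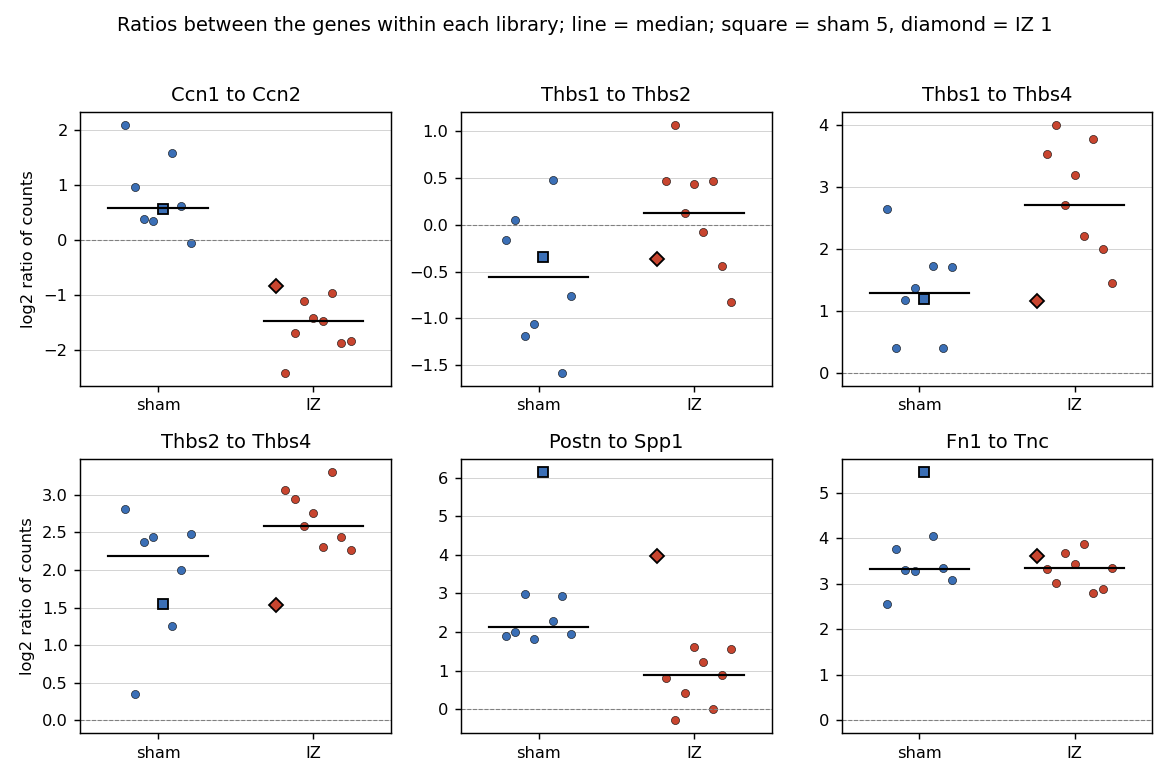
Log2 ratio of counts for 6 pairs of the genes within each library, with the group median as a line and the dashed line at equal counts. For Ccn1 to Ccn2 all 9 infarct zone points lie below all 8 sham points, and for Postn to Spp1 sham replicate 5 (square) and infarct zone replicate 1 (diamond) lie above the rest of their groups.

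Each gene was also set against 10 fibroblast identity markers in the same library, as fibroblasts are a known source of these proteins. The ratio of each of the 10 genes to the summed markers was higher in the IZ than in sham, by 0.93 (Ccn1, adjusted exact permutation p 0.0243) to 5.48 (Spp1, adjusted exact permutation p 1.32e-04) on the log2 scale. That sum held nearly the same level in both groups, 2448 ± 380 CPM (SD) over the 8 sham and 2589 ± 359 CPM (SD) over the 9 IZ libraries. Although 8 of the 10 markers were called higher, Gsn, the most abundant of them in sham and also expressed by other cells, fell from 1150 to 215 CPM. In 2 settings chosen after seeing the data, Gsn was left out or the mean log2 level of the 10 markers was used. For the other 9 genes the ratio was still higher in the IZ than in sham, by at least 1.38 without Gsn and at least 1.16 with the mean. For Ccn1 the difference between the groups was 0.14 without Gsn (exact permutation p 0.689) and -0.08 with the mean (exact permutation p 0.810). For Ccn1 alone, then, the call against the fibroblast markers depended on how the markers were combined.

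Family members and other matricellular glycoproteins were examined next. Of 23, 14 were tested, and 8 were called higher, 3 lower and 3 were not called, with a median log2 fold change of 1.55. Over all tested genes, 36.3% were called higher and 33.1% lower. The matricellular relatives median log2 fold change was 0.77 with the DESeq2 Wald test, which tests more genes, and 2.63 with total counts alone. At the top stood Ccn4 (WISP1), at 6.15 ± 2.89 CPM (SD) over the 8 sham and 117 ± 33.2 CPM (SD) over the 9 IZ libraries, with a log2 fold change of 4.29 ± 0.25 (SE), then Ccn5 (WISP2), a CCN protein that lacks the last of the family's domains, at 3.63 ± 0.22, and Efemp2 (fibulin-4), needed for elastic fibres and the activation of lysyl oxidase, at 3.18 ± 0.16. Tnxb, the tenascin of loose connective tissue, fell by 2.34 ± 0.29 on the log2 scale, from 32.8 to 6.47 CPM, opposite to Tnc. Sparcl1, the closest relative of Sparc, and Smoc2 had log2 fold changes of -0.48 ± 0.15 and -0.28 ± 0.11 (adjusted p 0.0058 and 0.0315, edgeR), and both stood above 0 with total counts alone. The call of Smoc2 was lost in 9 of 26 alternatives, 6 of them with a single library left out (sham replicate 6 or IZ replicate 2, 3, 4, 8 or 9). No sham library had more than 1 count of Tnr or Tnn, and neither was tested.

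Among the receptors of these proteins, 18 of 20 were tested, with 13 called higher, 3 lower and 2 not called and a median log2 fold change of 1.37. The shares over all tested genes were 36.3% called higher and 33.1% lower. With total counts alone the receptors median log2 fold change was 2.46. Cd44, which binds hyaluronan and osteopontin, went from 9.84 ± 3.43 CPM (SD) over the 8 sham libraries up to 77.5 ± 17.04 CPM (SD) over the 9 IZ libraries, a rise of 2.98 ± 0.19 on the log2 scale (SE). Itgb3, the β subunit of the vitronectin receptor, rose by 2.74 ± 0.35 and Sdc1, a heparan sulphate proteoglycan, by 2.69 ± 0.19. Itgb3 had only 1 to 5 counts per sham library, so its fold is imprecise. The 3 that fell were Itgb6, a partner of αv integrin in epithelia, by 3.13 ± 0.32, Cd36, the fatty acid and thrombospondin receptor abundant in cardiomyocytes and capillaries, by 2.32 ± 0.17, and Cacna2d1, by 1.94 ± 0.15 on the log2 scale. The level of Cd36 went from 1187 ± 86.4 CPM (SD) over the 8 sham libraries down to 238 ± 83.9 CPM (SD) over the 9 IZ libraries, while its ligands Thbs1 and Thbs2 rose.

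Of 22 other genes often used as a readout of YAP and TEAD, 20 were tested. The calls were 9 higher, 5 lower and 6 without a call, with a median log2 fold change of 0.28. Among all tested genes 36.3% were called higher and 33.1% lower. Myof, a membrane repair protein, rose by 3.22 ± 0.20 (SE), the kinase gene Nuak2 by 2.45 ± 0.28 and the matrix gene Ccdc80 by 1.73 ± 0.18 on the log2 scale. Nuak2 had only 0 to 8 counts per sham library, so its fold is imprecise. F3 (tissue factor) fell by 1.92 ± 0.30, and Gadd45a and Arhgef17 each by 1.09 on the log2 scale. With total counts alone 16 of the 20 were called higher and 1 lower, and the YAP and TEAD targets median log2 fold change was 1.37, while it was 0.52 with the DESeq2 Wald test and 0.60 without a filter. The log2 fold change of Ccn2, 3.42, lay above those of all 20, and that of Ccn1, 0.99, inside their range, differences that were not tested.

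A list of enzymes that cut, activate or cross-link the proteins also held Thbd, which encodes a receptor, and 14 of its 17 genes were tested. Of these, 10 were called higher, 1 (Thbd) lower and 3 were not called, with a median log2 fold change of 1.84. Beside these counts, 36.3% of all tested genes were called higher and 33.1% lower. With total counts alone the processing enzymes median log2 fold change was 2.92. Mmp12, the elastase of macrophages, rose by 5.31 ± 0.42 (SE) from 1.76 to 67.5 CPM. It had only 0 to 7 counts per sham library, so its fold is imprecise. Lox, the lysyl oxidase that cross-links collagen, rose by 4.64 ± 0.28 from 27.4 ± 8.78 CPM (SD) over the 8 sham libraries up to 679 ± 261 CPM (SD) over the 9 IZ libraries. Adamts4, a matrix protease, never exceeded 3 counts in sham and was at least 4.86-fold higher in the IZ, measured against the mean level of 3 counts in sham. The median of the list was the same with Adamts4 at that bound. Thbd, the endothelial thrombin receptor, fell by 1.13 ± 0.14 on the log2 scale. Htra1 had a log2 fold change of -0.18 ± 0.12 (adjusted p 0.167, edgeR) and Furin one of 0.28 ± 0.11 (adjusted p 0.0267, edgeR).

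Among the 9 IZ libraries, 45 pairs of the 10 genes and their 30 relations to the summed cardiomyocyte, fibroblast and macrophage markers were examined in log2 CPM with exact two-sided permutation tests. None of the 75 passed an adjusted p of 0.05 by Pearson's r or by Spearman's rho, while 7 pairs and 7 marker relations had an unadjusted exact permutation p under 0.05 for r. The smallest was that of Postn and Thbs4, with r 0.90 and rho 0.88 (exact permutation p 0.0012 and 0.0031, adjusted 0.0899 for r). Without replicates 3 and 7, the 2 libraries farthest from the median of Postn, r was 0.67 (exact permutation p 0.111). Without replicate 1, r was 0.95 with an adjusted exact permutation p of 0.0391. In the sham libraries the same pair had r -0.0093. Thbs4 had only 6 to 24 counts in each of them, so this does not show that the relation was absent in sham. Ccn2 and Fn1 had r 0.78 and rho 0.75 (exact permutation p 0.0029 and 0.0255, adjusted 0.110 for r), and r 0.77 without the 2 farthest libraries.

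Some of the strongest coefficients rested on IZ replicate 1. Spp1 had r 0.85 with Tnc (exact permutation p 0.0341) but rho 0.45 (exact permutation p 0.230), and r was 0.21 without that library. Spp1 had r -0.91 with the cardiomyocyte markers (exact permutation p 0.0189; rho -0.68, exact permutation p 0.0503) and 0.89 with the macrophage markers (exact permutation p 0.0249; rho 0.57, exact permutation p 0.121), and without replicate 1 these were -0.39 and 0.31.

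**Figure D5:**
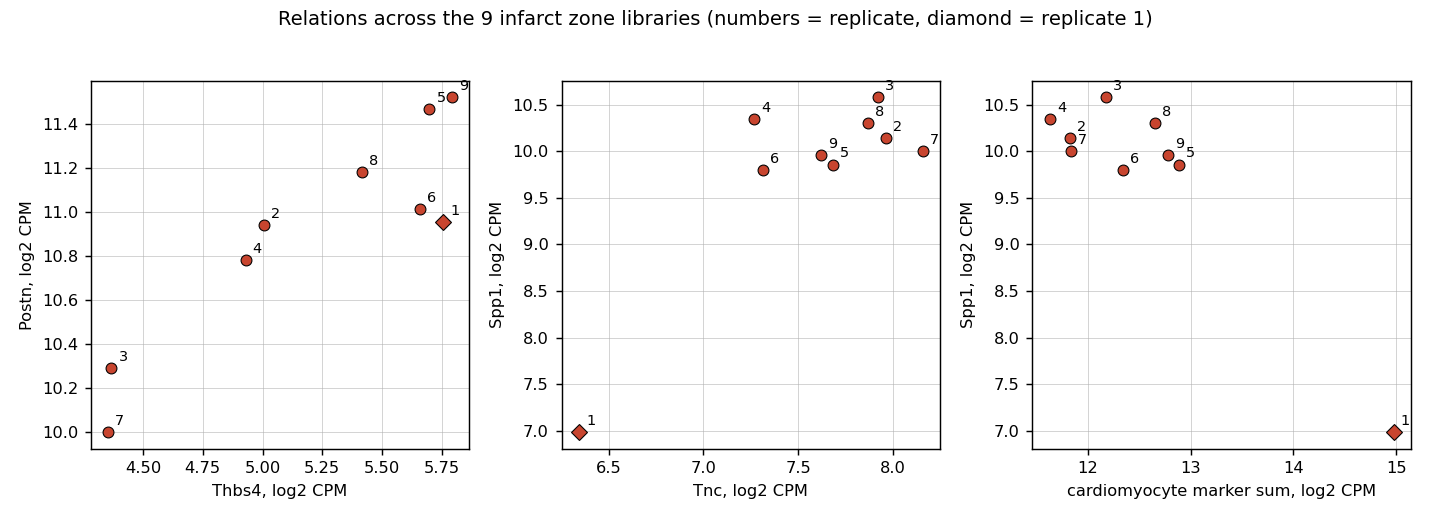
Log2 CPM of Postn against Thbs4, of Spp1 against Tnc, and of Spp1 against the summed cardiomyocyte markers in the 9 infarct zone libraries, numbered by replicate. Postn and Thbs4 spread along a line with replicates 3 and 7 at its low end, whereas in the other panels replicate 1 (diamond) lies far from a group of 8.

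For each gene the 2 genes of most similar level across the 9 IZ libraries were looked up among the 9329 named genes whose mean reached 10 CPM, as a description with no test, since the highest of so many coefficients is chosen by its size. For Postn these were Serpinf1, a secreted serpin of fibroblasts (r 0.98), and Ufc1 (r 0.95). Spp1 was nearest to Cstb, a cathepsin inhibitor, and S100a4, a calcium-binding protein of macrophages and fibroblasts (r 0.99 for both), and without replicate 1 these were 0.80 and 0.96. Tnc was nearest to Ostm1 (r 0.99) and Otulinl (r 0.97), and without replicate 1 these were 0.95 and 0.88. Sparc was nearest to Myh10, a non-muscle myosin (r 0.95), and the fibril-associated collagen gene Col14a1 (r 0.93). Fn1 was nearest to Snx7 and Cd109 (r 0.97 for both), and without replicate 1 these were 0.85 and 0.82. Thbs1 was nearest to the actin-binding Cald1 and to Vgll3, a TEAD cofactor, Thbs2 to Tmem164 and Cthrc1, a secreted protein of activated fibroblasts, and Thbs4 to Apool and the proprotein convertase Pcsk6, with r of 0.93 to 0.97 for these 6 genes. Ccn2 was nearest to Ltbp2, a microfibril protein (r 0.96), and Cadm1 (r 0.95), and Ccn1 to Tmub2 (r 0.98) and Zfp397 (r 0.93). Of the 20 genes, Apool, Pcsk6 and Zfp397 were called lower in the IZ, and Ufc1, Tmub2 and Cadm1 were not called. The call of Zfp397 was lost in 13 of 25 alternatives, 9 of them with a single library left out (sham replicate 1, 2, 4 or 5 or IZ replicate 2, 3, 4, 8 or 9).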

How the data were processed

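Total RNA from sham LV and IZ was treated with DNase, and 3' end libraries with molecular identifiers were sequenced on a NextSeq 500. The authors trimmed reads with Cutadapt, mapped them to the mouse genome mm10 and counted them per gene with HTSeq; the submitters' processing notes also name Bowtie2 and DESeq2. The values deposited by the authors are raw counts, not normalized. The annotation release is not given in the sources used here.

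Genes were filtered with filterByExpr of edgeR 4.0.16 (R 4.3.3, minimum count of 10), library sizes were TMM-scaled, and the 2 groups were compared by the two-sided quasi-likelihood F-test without covariates, adjusted by Benjamini-Hochberg at 0.05. CPM use TMM-scaled library sizes, and log2 CPM a prior count of 1. A gene that never exceeded 3 counts within a group was taken to be at the floor there, and floors cover counting error only. Ratios used counts plus 1. Exact permutation tests of group differences enumerated every assignment of the 17 libraries, and those of relations all 362880 pairings. Positions are from GENCODE on GRCm38 (31521 features matched), and near-identical 3' ends were sought with the last 500 bases of transcripts, at 95% identity over at least 100 bases. The 10 genes, the lists and the tests were chosen with earlier results of these data known. Named besides the 10 were the 3 highest and 3 lowest log2 fold changes of each list, list genes at the floor in 1 group, and the 2 most similar genes. Scripts were tested on simulated data. Alternatives were DESeq2 1.42.0, other scalings and filters, thinning, a replicate block and leaving out each library. Python 3.11.15, NumPy 2.4.6, pandas 2.3.3, SciPy 1.17.1 and Matplotlib 3.10.9 were used.

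Each library is a separate mouse, and at 1237675 to 4738307 counts per library, 3 counts stood for a mean of 1.79 CPM in sham and 1.06 CPM in the IZ.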

Additional observations from a re-analysis of the deposited data

Results flagged for a closer look

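In groups of 8 or 9 libraries, a library was singled out where its gap to the nearest other took more of the group's range than Dixon's 95% critical value. With 54 group values checked, chance alone singles out about 1 in 20. All cases came from sham replicate 5, IZ replicate 1 or, for the share of counts, sham replicate 3.

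Sham replicate 5 was low in 2 of the 10 genes. Its Spp1 and Tnc were both at 0.49 log2 CPM (2 counts of each), against 4.08 to 5.41 for Spp1 and 2.46 to 4.22 for Tnc in the other 7 sham libraries. Its log2 ratio of Postn to Spp1 was therefore 6.15 (others 1.83 to 2.995), and its ratios of Spp1 and of Tnc to the fibroblast identity markers were both -10.91 (others -7.05 to -5.62 and -8.58 to -7.14). Its other 8 genes were not singled out.

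IZ replicate 1 was low in Spp1, Tnc and Fn1, at 6.99, 6.34 and 9.96 log2 CPM against 9.80 to 10.58, 7.27 to 8.16 and 10.75 to 11.28 in the other 8 IZ libraries. The 10 genes took 0.864% of its counts (others 1.42 to 1.93%), its log2 ratio of Postn to Spp1 was 3.97 (others -0.29 to 1.61), and its ratios to the fibroblast identity markers were -4.47 for Spp1 (others -1.78 to -0.48) and -1.50 for Fn1 (others -0.57 to -0.10). The library also held more cardiomyocyte marker counts (32150 CPM against 3169 to 7566) and fewer macrophage marker counts (2551 CPM against 4240 to 6298). Their part in these values was not tested.

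In sham replicate 3 the 10 genes took 0.106% of the counts, against 0.0530 to 0.0779% in the other 7 sham libraries.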

How the results depend on the processing

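All 10 genes stayed higher with an adjusted p under 0.05 in each of 26 alternatives, and Ccn1 came nearest to the threshold. The replicate numbers only name the mice: the deviations of same-numbered libraries correlated at -0.22 to 0.13, and with the replicate block the genes called higher numbered 4085 and the genes called lower 3798, all 10 of the genes among the former. Scaling set the size of changes most. Total counts alone moved the median of all genes by 1.09 on the log2 scale (the DESeq2 Wald test, on more genes, by -0.25, no filter by 0.19 and upper quartile scaling by 0.11), with 9203 genes called higher and 1524 genes called lower, 13 and 1 of the relatives, 16 and 1 of the YAP and TEAD targets and 0 enzymes lower. It gave list medians of 2.63 (relatives), 2.46 (receptors), 1.37 (YAP and TEAD targets) and 2.92 (enzymes), and turned the sign of Smoc2 (0.81), Sparcl1 (0.58), Gadd45a (0.0014), Htra1 (0.89), Ufc1 (0.98), Pcsk6 (0.24), Tmub2 (1.02) and Zfp397 (0.64). A minimum mean of 50 counts left fewer genes to test and 2747 higher and 2492 lower calls, 3 YAP and TEAD targets lower, and medians of 2.16 for relatives and 1.23 for receptors. Other list medians were 0.77 (relatives), 0.52 (YAP and TEAD targets) and 2.27 (enzymes) with the DESeq2 Wald test, 1.11, 0.60 and 2.33 for the same lists without a filter, 1.37 for enzymes with the replicate block, and 1.89, 1.61 and 2.31 for relatives, receptors and enzymes after thinning, where low genes enter or leave the lists. With 1 library left out the receptor median was 1.21 to 1.55 and the enzyme median 1.33 to 2.36. The genes called lower in the enzyme list, which holds Thbd, then numbered 1 to 2. The log2 ratio of Thbs1 to Thbs2, with an unadjusted exact permutation p of 0.0489, was 0.52 to 0.82 with 1 library left out, 0.68 by medians, 0.58 after thinning and 0.61 with 5 counts added, with p mostly above 0.05. Thbs2 to Thbs4 was 0.45 to 0.80 with 1 library left out and 0.91 with 5 counts added, and the log2 ratio of Thbs1 to Thbs4 was 1.002 after thinning. Fn1 to Tnc was 0.016 by medians and 0.11 with 5 counts added. The log2 ratio of Ccn1 to fibroblast identity markers was 0.97 by medians (exact permutation p 0.0913), 0.14 without Gsn and -0.084 with the mean log2 level, the last 2 chosen after seeing the data. Calls of named genes changed for Smoc2 (lost in 9 of 26 alternatives, without sham replicate 6 and IZ replicates 2, 3, 4, 8 or 9 among them), Furin (lost without sham replicates 3, 5 or 6), Zfp397 (lost in 13, 9 of them with 1 library left out), Htra1 (called lower without IZ replicate 1) and, with total counts alone, Apool, Arhgef17, Thbd (lost) and Cadm1 (called higher). Pairs of the 10 genes past an adjusted p of 0.05 numbered 0 to 1 with 1 library left out. The cause of these shifts was not tested. Genes of a few counts in sham, such as Tnc and Thbs4 with medians of 8.05 and 7.81 CPM, limit the precision of their folds.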
